A study of Mus musculus with 32 samples.

Results

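The circadian clock genes Dbp, Cry1, Arntl, Clock, Rora, Bhlhe40, Per1, Per2 and Tef were followed through the livers of 32 aged male mice, as 9 genes of the 8251 that had a probe set with a single gene symbol. All probe sets whose only symbol was that of a member were taken, which gave 12 of the 12422 probe sets that were not controls. The genes had been selected on measured intensities of these same mice, with the comparison used not stated, so differences between groups are given for them as descriptions, with no p-value of their own. Of the 12 probe sets, 9 passed the filter on dim signals, 1 for each gene. The other 3 were further probe sets of Cry1 and Rora and lay near the floor of the arrays.

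The mice were of the B6C3F1 hybrid strain, were housed singly from 5 months of age, and gave 1 array of liver total RNA each, in 8 groups of 4. Controls (CON) ate 93 kcal per week of a defined diet. Long-term calorie restricted mice (LTCR) ate 52.2 kcal per week from 5 months. Mice restricted for 8 weeks (CR8) ate as CON until 20 months, when their intake was cut to 77 kcal per week, and after 2 weeks to the 52.2 kcal of LTCR. The remaining groups ate the control diet for 8 weeks from 20 months with metformin (MET), which lowers glucose output by the liver, with glipizide (GLIP), which stimulates insulin release, with glipizide plus metformin (GM), with rosiglitazone (ROS), which activates the receptor PPAR gamma, or with soy isoflavone extract (SOY). All mice were fed in the morning on 3 days of the week, were fasted for 48 hours, and were killed at 22 months. Neither drug doses nor the hour of killing are stated in the sources used here. Each mouse was measured at a single time, so a change in the level of a rhythmic transcript and a shift in its timing cannot be told apart.

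The circadian clock of liver cells is a feedback loop of transcription. The proteins of Arntl (also called BMAL1) and Clock bind E-box sequences together and switch on the Per and Cry genes, whose proteins then block that same pair. A further loop sets Arntl itself, which is activated by the receptor RORA and repressed by the REV-ERB receptors (Nr1d1 and Nr1d2) at shared ROR elements. The loop drives output factors such as Dbp and Tef, which bind D-box sequences and control many metabolic genes of the liver. Arntl and the Per genes peak at opposite times of day, and liver clocks take much of their timing from meals.

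Promoter windows of the members were searched for the kinds of element named above. A stretch is printed for each member with a match and for Dbp. The windows of Clock and Rora held no match and are not printed. RefSeq's promoter table (build GRCm38.p6) held windows from 250 bases before to 50 bases after a start site for 7 of the 9 members, 12 windows in all; Per2 and Bhlhe40 were not matched. Both strands were searched for the E-box CACGTG, the variant E-box CACGTT, the D-box TTATGTAA, and the ROR elements TAGGTCA and TGGGTCA. The E-box and its variant differ in their last letter, as the ROR elements do in another, so neither pair can match at the same position. The E-box CACGTG stood in the windows of Cry1 (60 bases before the start), Per1 (166 before) and Tef (138 before, and 127 before an alternative start). Of all 32851 windows of this length, 7.15% held it. The variant CACGTT, held by 4.68% of windows, lay in the Cry1 window 79 bases before the start, where it reads AACGTG on the printed strand. The element TAGGTCA, held by 2.61% of windows, lay 31 bases after a start site of Arntl. TTATGTAA (0.938% of windows) and TGGGTCA (3.98%) were in none of the 12 windows. A match is a description of the letters and no evidence that a factor binds there. The 250 bases before the start are printed 5′ to 3′ on the gene's strand, and for Arntl the last 30 bases of the window, with matched letters in capitals:
Dbp, chr7:45704997-45705246, plus strand: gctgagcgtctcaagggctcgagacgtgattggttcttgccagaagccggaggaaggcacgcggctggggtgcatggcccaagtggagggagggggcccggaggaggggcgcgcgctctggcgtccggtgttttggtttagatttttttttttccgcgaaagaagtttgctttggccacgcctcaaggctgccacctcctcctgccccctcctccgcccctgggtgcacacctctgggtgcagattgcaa
Cry1, chr10:85185055-85185304, minus strand: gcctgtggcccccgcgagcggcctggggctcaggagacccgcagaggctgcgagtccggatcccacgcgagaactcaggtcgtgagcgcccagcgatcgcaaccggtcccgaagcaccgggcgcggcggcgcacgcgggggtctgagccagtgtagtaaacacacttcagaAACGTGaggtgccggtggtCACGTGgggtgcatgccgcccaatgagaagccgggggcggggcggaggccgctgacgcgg
Per1, chr11:69098699-69098948, plus strand: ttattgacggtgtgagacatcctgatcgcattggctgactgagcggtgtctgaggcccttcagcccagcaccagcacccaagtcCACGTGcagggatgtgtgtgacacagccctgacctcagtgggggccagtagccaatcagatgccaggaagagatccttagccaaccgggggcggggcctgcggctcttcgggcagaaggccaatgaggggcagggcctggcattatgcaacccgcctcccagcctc
Tef, chr15:81811164-81811413, plus strand: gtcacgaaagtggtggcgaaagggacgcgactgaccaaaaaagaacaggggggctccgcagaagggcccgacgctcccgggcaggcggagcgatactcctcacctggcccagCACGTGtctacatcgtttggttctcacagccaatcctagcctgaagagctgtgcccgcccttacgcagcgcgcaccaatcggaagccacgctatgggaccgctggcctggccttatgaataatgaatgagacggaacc
Arntl, chr7:113207531-113207560, plus strand: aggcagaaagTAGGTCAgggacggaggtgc
None of the searched letters stood in the Dbp window, which is shown because Dbp had the largest difference among the members in LTCR against CON.

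Values are the authors' scaled intensities, in array units. The mean of each array without its lowest and highest 2% of values was 500.4 to 500.5, and array medians were 144.9 to 170.3. The summed signal of 8 hepatocyte markers was high on every array, from 154800 to 176600 in CON and from 188300 to 229100 in LTCR, and the part of this difference in the results was not tested. These markers include Tat, which is also read further on and averaged 17230 in LTCR and 8250 in CON. Markers of skeletal muscle, of which 11 of 12 had a probe set, stood more than 1 log2 unit above the median array on 5 arrays (CON 3, CR8 1, CR8 2, ROS 4 and SOY 3). Their summed signal reached 20010 in CON, 15420 in CR8, 28030 in ROS and 9632 in SOY, against at most 4197 in LTCR. Macrophage markers stood above that limit on 1 array, GLIP 3, with a sum of 6153 over 6 genes. Calls lost without the arrays rich in muscle transcripts are given beside the genes concerned.

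Long-term restriction was compared with the control diet to describe the clock genes of a liver restricted for most of adult life. The output factor Dbp and the repressor Bhlhe40 fell in LTCR, and Cry1, Arntl, Clock and Rora rose, as called at an adjusted p under 0.05 by limma over all 7357 tested probe sets. Dbp fell to 0.435 times the CON mean and Cry1 rose 2.17-fold. Per1, Per2 and Tef were not called. The 6 called members of 9 stand beside 19.3% of all tested probe sets called in this comparison. By direction, 4 members were called higher, beside 7.53% of all probe sets, and 2 lower, beside 11.8%. For 6 members the LTCR and CON arrays did not overlap, beside 21.2% of all probe sets. Since this contrast may have served to pick the members, nothing is read from these shares. The median difference of the 9 members was 0.36 on the log2 scale, and that of all probe sets was 0. In whole tissue, fewer cells of a type and less RNA per cell cannot be told apart.

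**Figure D1:**
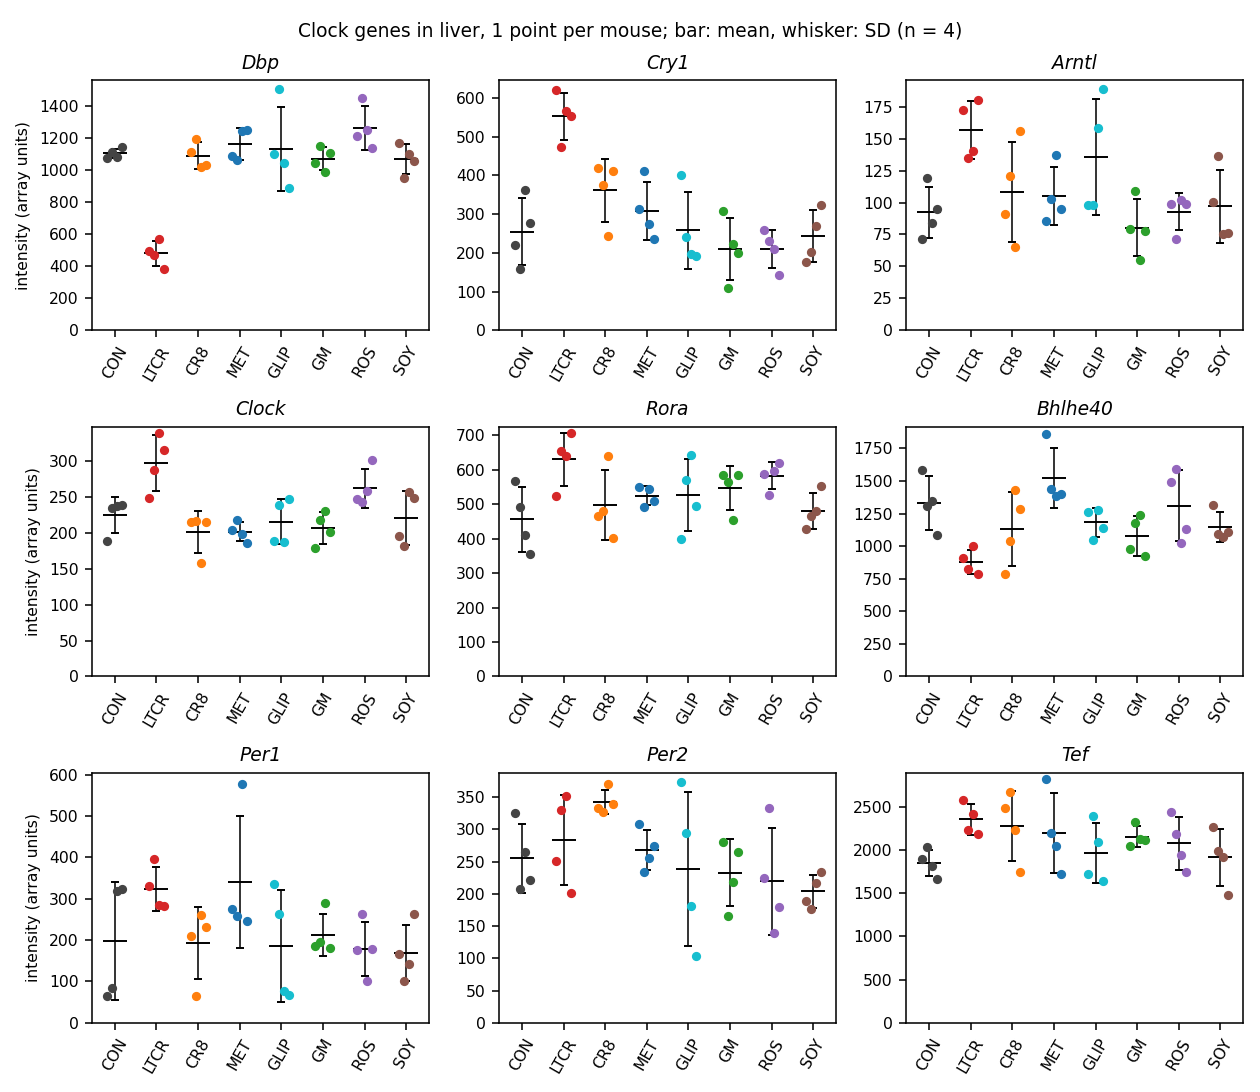
Intensity in array units (vertical axis, from 0) of the 9 clock genes in each of the 8 groups. Each point is 1 mouse, the horizontal bar is the group mean and the whisker the SD (n = 4). The 4 LTCR points for Dbp lie between 384 and 571.8, below every other mouse, whose lowest value is 886.2, and Per1 spreads widely inside CON and GLIP.

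Dbp, a PAR bZIP transcription factor and one of the most strongly rhythmic transcripts of the liver, was the member that set LTCR apart most clearly. Its probe set read 1076.4, 1115.1, 1082.4 and 1142.2 in the CON mice, and 492.6, 470.4, 571.8 and 384 in the LTCR mice. The CON mice lay close together, with a mean of 1104 ± 30.6 (SD, n = 4), and every LTCR mouse was below all of them, with a mean of 479.7 ± 77.2. The log2 difference was -1.17 ± 0.12 (SE). It was the 104th largest in size of the 7357. The CR8 mice read 1112.4, 1197.4, 1020.3 and 1029, in the range of the other groups. In the order of group means LTCR was followed by SOY at 1070, GM at 1072, CR8 at 1090, CON at 1104, GLIP at 1133, MET at 1162 and ROS at 1263. Only the step from LTCR to SOY separated neighbours whose arrays did not overlap. Dbp was called lower in LTCR under each alternative that was run, with a difference between -1.26 and -1.07.

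Tef, the other PAR bZIP factor among the members, did not follow Dbp. It read 1893.8, 2031.3, 1820.8 and 1669.4 in CON and 2583.1, 2234.8, 2419.6 and 2186.4 in LTCR. All LTCR mice were above all CON mice, yet the difference of 0.34 ± 0.14 (SE) was not called. The group means ran from 1854 ± 151 in CON to 2356 ± 182 in LTCR, and no neighbours in that order were free of overlap. With the fit restricted to the LTCR and CON arrays, Tef was called higher.

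The activators of the loop were both higher in LTCR. Arntl, the partner of Clock, read 71.3, 119, 83.9 and 94.9 in CON, and 172.4, 135, 140.6 and 180.4 in LTCR. The LTCR mice were all above the CON mice, with means of 157.1 ± 22.6 and 92.28 ± 20.3 (SD, n = 4) and a log2 difference of 0.63 ± 0.22 (SE). The signal was dim, with a mean intensity of 108.6 over the 32 arrays. The filter limit, applied to mean log2 values, was set at an intensity of 94.2. Clock read 188, 234.5, 236.9 and 238.6 in CON, and 247.9, 286.9, 338.4 and 315.2 in LTCR. These groups did not overlap either, and the difference was 0.36 ± 0.13. Both calls were marginal. That of Arntl ended without CON 1 (0.55), CON 3 (0.60), CON 4 (0.65), LTCR 1 (0.59) or LTCR 4 (0.57), and without a filter. That of Clock ended without CON 1 (0.29), CON 2 (0.38), CON 3 (0.39), CON 4 (0.39), LTCR 2 (0.38), LTCR 3 (0.30) or LTCR 4 (0.33), without a filter and with LTCR and CON fitted alone. Both ended without the arrays rich in muscle transcripts, with differences of 0.60 for Arntl and 0.39 for Clock. The direction held in all of these.

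Among the repressors, Cry1 rose in LTCR. This cryptochrome, a protein that blocks the CLOCK and BMAL1 pair, had a signal of 221.1, 157.4, 361.8 and 278.2 in CON, and 620.6, 474.4, 565.4 and 552.6 in LTCR. The LTCR mice lay above every other mouse of the series, of which the highest was a CR8 mouse at 419.3. The means were 254.6 ± 86.8 in CON and 553.2 ± 60.3 in LTCR, and the log2 difference was 1.09 ± 0.26. Cry1 was called higher under each alternative, with a difference between 0.90 and 1.26. Its 2 other probe sets averaged 7.42 and 3.33 over all arrays and lay below 27, the value added before logarithms, on 30 and 32 of the 32 arrays, so they give no second reading. The suffix of the bright Cry1 probe set marks probes that can be shared with related transcripts.

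Per1 and Per2, the period repressors, gave no call. Per1 read 65, 85.1, 319.7 and 323.5 in CON, and 331.5, 397, 284.6 and 283.1 in LTCR. The CON mice fell into a low and a high pair, and the LTCR mice lay around the high pair. The difference was 0.89 ± 0.44 (SE), and it was 0.54 without CON 1 and between 0.64 and 1.19 with any other CON or LTCR array left out. Per2 read 325.9, 207, 264.3 and 221.9 in CON, and 251.3, 329.3, 351.5 and 200.6 in LTCR. Its groups overlapped over almost their full range, and the difference was 0.13 ± 0.25.

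Rora and Bhlhe40 act on the loop from outside the Per and Cry limb. Rora, the receptor that activates Arntl, read 566.6, 493.2, 409.3 and 354.6 in CON, and 523.4, 653.7, 639.1 and 706.6 in LTCR. A single LTCR mouse lay inside the CON range, and the difference was 0.46 ± 0.14. The call of Rora ended without CON 3 (0.42), CON 4 (0.35) or LTCR 4 (0.40), without the arrays rich in muscle transcripts (0.42), and with LTCR and CON fitted alone. Its other probe set averaged 17 and was below 27 on 31 arrays. Bhlhe40 (also called DEC1), a repressor that competes at E-boxes, read 1586.2, 1310.1, 1345.3 and 1082.3 in CON, and 910.2, 821.2, 998.2 and 786.9 in LTCR. Every LTCR mouse was below every CON mouse, with means of 879.1 ± 94.9 and 1331 ± 206. The difference was -0.58 ± 0.15, and the call held under each alternative, between -0.67 and -0.49.

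Restriction for 8 weeks was compared with the control diet to see the clock genes after a short period at the same final intake. No member was called in CR8, beside 0.544% of all probe sets called by limma. Of the 9 members, 0 had an unadjusted p under 0.05, beside 11.6% of all probe sets. Dbp was at 1090 ± 82.9 against 1104 ± 30.6, a difference of -0.02 ± 0.12. Cry1 read 419.3, 375.7, 243.7 and 410.7, with a mean of 362.4 ± 81.3 and a difference of 0.49 ± 0.26, and 3 of these mice exceeded the highest CON mouse. Per2 was the member whose CR8 arrays did not overlap CON, beside 7.2% of all probe sets without overlap. The CR8 mice read 333, 327.4, 369.6 and 339.4 for Per2, just above the highest CON mouse at 325.9, with a difference of 0.41 ± 0.25. CR8 had the highest Per2 mean of the 8 groups, 342.4 ± 18.8, but overlapped the next group, LTCR.

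LTCR was also set against CR8, as groups with the same final intake and different durations. Dbp was lower by -1.15 ± 0.12 and Clock higher by 0.51 ± 0.13, and limma called these 2 members of 9, beside 12% of all probe sets (4.65% higher and 7.34% lower). The CR8 mice read 214.7, 215.6, 157.5 and 214.9 for Clock, all below the LTCR mice. Cry1 and Per1 also did not overlap between these groups, with differences of 0.60 ± 0.26 and 0.79 ± 0.44 and no call, which makes 4 members, beside 16.1% of all probe sets. The Per1 difference was 0.42 without CR8 2, the CR8 mouse with the lowest Per1 (64.8), and 0.35 without the arrays rich in muscle transcripts, of which CR8 2 is one. For the remaining members the difference was 0.48 ± 0.22 for Arntl, 0.34 ± 0.14 for Rora, -0.33 ± 0.15 for Bhlhe40, -0.28 ± 0.25 for Per2 and 0.06 ± 0.14 for Tef. The Clock call ended with LTCR and CR8 fitted alone. Calls appeared for Bhlhe40 without CR8 1 (-0.49) or without the arrays rich in muscle transcripts (-0.61), and for Rora without CR8 3 (0.46). This comparison and that with CON share the LTCR arrays.

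**Figure D2:**
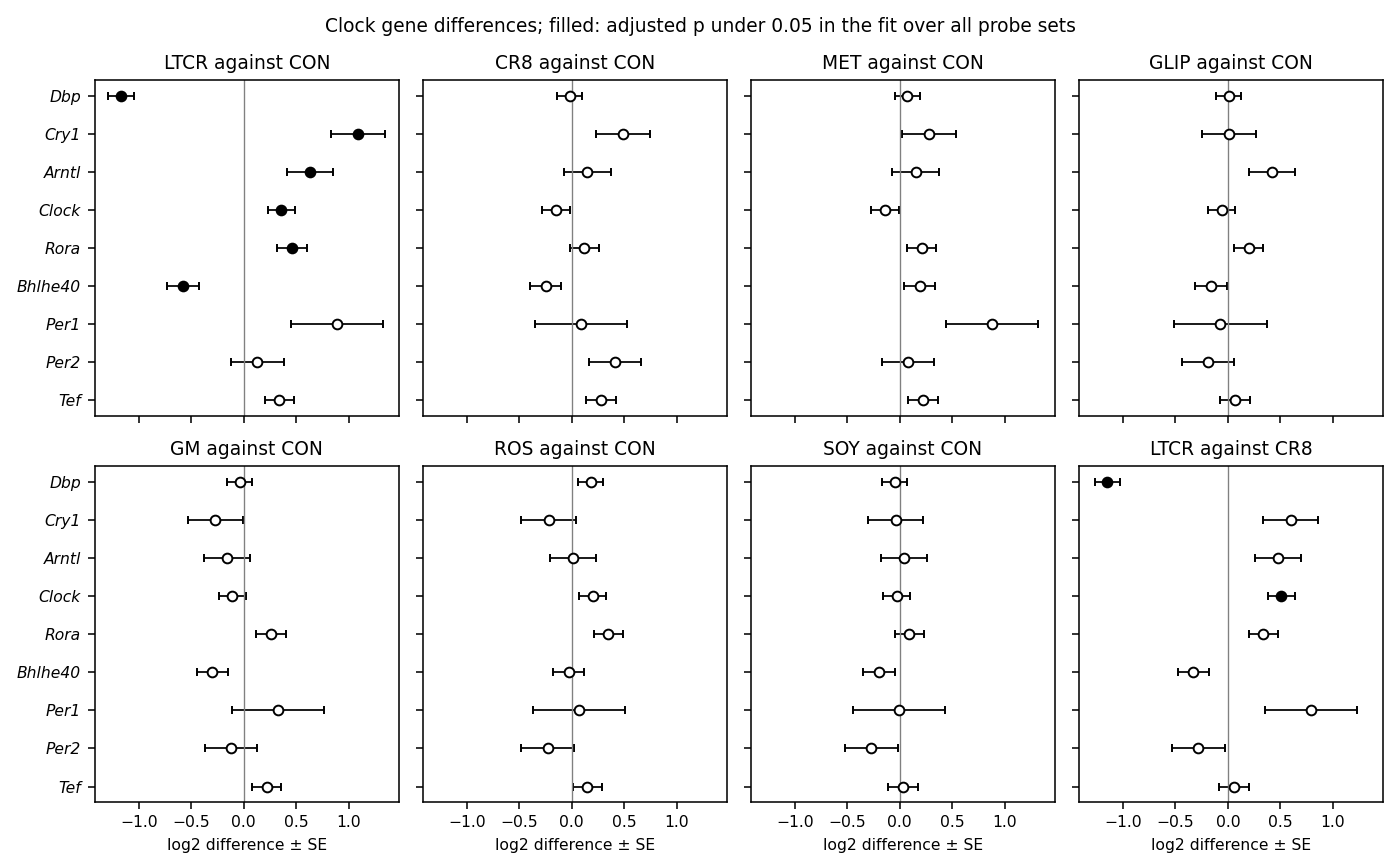
Differences on the log2 scale with their SE (horizontal axis) for the 9 clock genes in each of 8 comparisons. Filled points are called at an adjusted p under 0.05 in the fit over all probe sets. Filled points appear for 6 genes in LTCR against CON and for Dbp and Clock in LTCR against CR8, and the 6 other panels hold open points only.

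The drug and isoflavone groups were set against CON to ask whether the clock genes responded to agents given with the control diet. No member was called by limma in MET, beside 4.17% of all probe sets, in GLIP, beside 0.136%, in GM, beside 1.55%, in ROS, beside 0.136%, or in SOY, beside 0%. The count of members with an unadjusted p under 0.05 was 1 in ROS, which was Rora, and 0 in each of the others. Of all probe sets, 18.1% had such a p in MET, 9.37% in GLIP, 17.7% in GM, 8.41% in ROS and 8.17% in SOY. Dbp differed from CON by 0.07 ± 0.12 in MET, 0.01 ± 0.12 in GLIP, -0.04 ± 0.12 in GM, 0.18 ± 0.12 in ROS and -0.05 ± 0.12 in SOY. These treated groups share the CON arrays, so a chance deviation of the CON mice enters all of them. Scaling the arrays to equal medians moved the median of all probe sets by over 0.1 in GM, from -0.05 to 0.09, and in SOY, from -0.03 to 0.08. Under it the Dbp difference turned to 0.10 in GM and 0.07 in SOY. The small negative differences of Clock and Per2 in GM and of Cry1, Clock and Per1 in SOY also turned positive, at 0.02, 0.01, 0.06, 0.07 and 0.09.

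The larger differences in the drug groups concerned single genes. Per1 in MET read 274.1, 259.4, 578.3 and 246.7, with a difference of 0.88 ± 0.44 (0.53 without CON 1), and overlapped CON through its high pair. Rora in ROS read 587.1, 527.7, 596.7 and 619.2, close together and overlapping CON, with a difference of 0.35 ± 0.14. Arntl in GLIP read 98, 98, 158.2 and 189.1, with a difference of 0.42 ± 0.22, and 2 of these mice lay inside the CON range.

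Groups without overlap against CON were seen for Clock in ROS and Tef in GM. Clock in ROS read 246.2, 242.3, 257.8 and 301.1, above the CON maximum of 238.6, with a difference of 0.20 ± 0.13, beside 4.85% of all probe sets without overlap. Tef in GM read 2045.7, 2328.9, 2124.6 and 2117.4, above the CON maximum of 2031.3, with a difference of 0.22 ± 0.14, beside 10.5%. For MET, GLIP and SOY no member was free of overlap, beside 10%, 5.44% and 5.36% of all probe sets.

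Along the order of group means, the members ranged between 1.27-fold for Tef and 2.63-fold for Dbp and Cry1, highest over lowest. LTCR was the highest group for Cry1, Arntl, Clock, Rora and Tef, and the lowest for Dbp and Bhlhe40. For Per1 the highest mean was that of MET, 339.6 ± 160, with LTCR next at 324 ± 53.6. Neighbours whose arrays did not overlap were CR8 and LTCR for Cry1, CON and ROS for Clock, and LTCR and SOY for Dbp. All other neighbours overlapped.

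The spread between mice of the same group differed among the members. It was compared with that of the 500 probe sets nearest in mean log2 intensity, as a description. Per1 varied most, with a within-group SD of 0.67 on the log2 scale against a median of 0.27 for its neighbours, of which 96.2% varied less. Cry1 had 0.38 against 0.23 (88.4% below) and Per2 0.36 against 0.24 (79.6%). Clock, whose transcript is known to cycle little in liver, had 0.16 against 0.26, and 6.2% of its neighbours varied less. Dbp had 0.17 against 0.17, with 47.8% below.

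Differences between mice of the same group are independent of the differences between groups for which the genes may have been picked, so they were tested. For each pair of members the log2 values minus the group means were correlated over the 32 mice, with permutation tests of 100000 resamples within groups, two-sided, and Benjamini-Hochberg adjustment over all 36 pairs. Arntl and Per2 moved in opposite directions, with Pearson's r = -0.70 (permutation p = 3e-05, adjusted p = 0.00108) and Spearman's rho = -0.75 (permutation p = 4e-05, adjusted p = 0.00144). In 0 of 8 groups did these genes correlate positively. Without the 2 mice farthest from the Arntl median r was -0.77, and with each group left out in turn or under another scaling it stayed between -0.78 and -0.59. Of all tested probe sets, 0.0544% correlated as strongly with Arntl. No technical batch is named in the labels, so no value within batches can be given beyond those within groups. These mice were killed at a single age and an unstated hour, and the part of the hour in this relation was not tested.

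**Figure D3:**
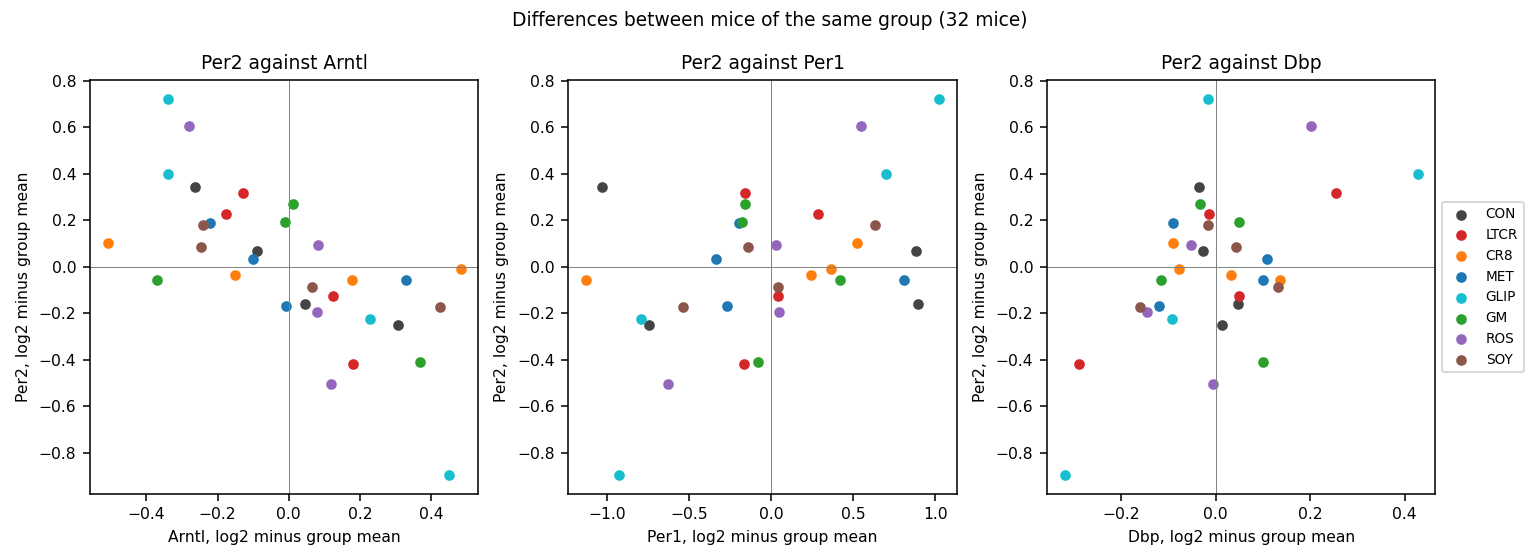
Log2 intensity minus the group mean of Per2 (vertical axes) against that of Arntl, Per1 and Dbp (horizontal axes), 1 point per mouse, coloured by group (32 mice). Points fall from upper left to lower right for Arntl (r = -0.70), and rise loosely for Per1 (r = 0.46) and Dbp (r = 0.51).

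The GLIP mice show the relation in single animals. GLIP 1 and GLIP 2 read 374.1 and 293.9 for Per2 and 98 and 98 for Arntl. GLIP 3 and GLIP 4 read 181 and 103.7 for Per2 and 158.2 and 189.1 for Arntl. Per1 went with Per2 in these mice, at 336.6, 263.1, 76 and 66.7 in the same order. GLIP 3 is the array with raised macrophage markers, GLIP 4 is not, and the part of those cells was not tested. Without the whole GLIP group r of Arntl and Per2 was -0.59.

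Of the other 35 pairs none passed the threshold after adjustment. Dbp and Per2 had r = 0.51 (permutation p = 0.0639, adjusted p = 0.304) and rho = 0.34 (permutation p = 0.117, adjusted p = 0.519), and r fell to 0.32 without the 2 mice farthest from the Dbp median. Per1 and Per2, which share control by E-boxes, had r = 0.46 (permutation p = 0.0492, adjusted p = 0.304) and rho = 0.39 (permutation p = 0.0743, adjusted p = 0.519), and r was 0.40 without the 2 farthest mice. With each group left out in turn or under the other settings, r of Per1 and Per2 lay between 0.18 and 0.62. Cry1 and Per2 had r = 0.45 (permutation p = 0.0276, adjusted p = 0.304) and rho = 0.40 (permutation p = 0.047, adjusted p = 0.519), with 0.30 without the 2 farthest. Cry1 and Rora had r = -0.42 (permutation p = 0.0472, adjusted p = 0.304) and rho = -0.43 (permutation p = 0.0381, adjusted p = 0.519), with -0.35 without the 2 farthest. Over the 36 pairs, 17 were positive, and 4 had an unadjusted p of r under 0.05.

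**Figure D4:**
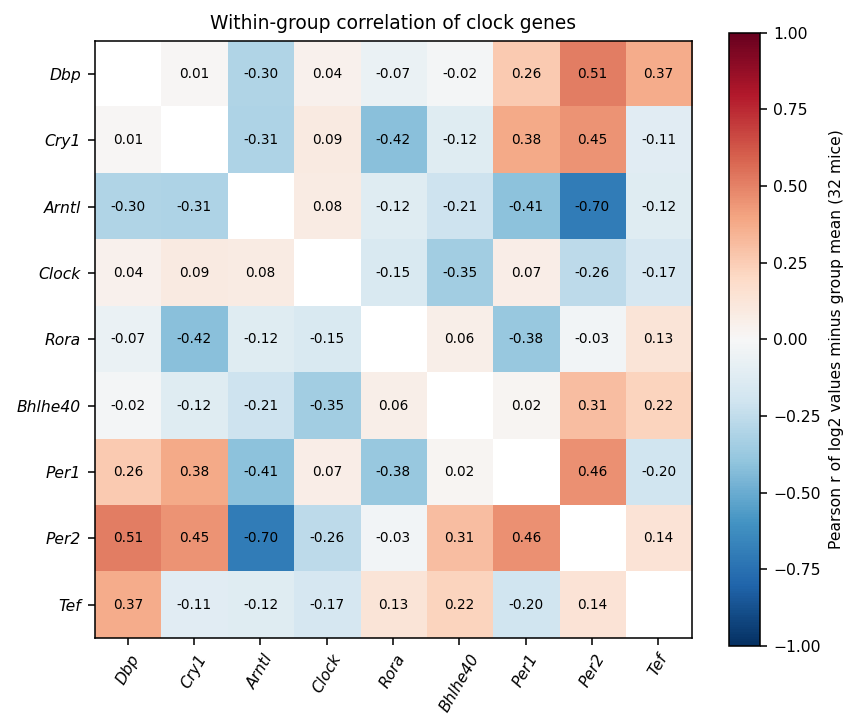
Pearson's r between the clock genes over 32 mice after removal of group means (colour and printed value, from -1 to 1). Arntl with Per2, at -0.70, is the pair that passed the adjusted threshold, and Per2 is positive with Dbp, Cry1 and Per1.

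Core loop genes that were no members were read in the same mice by the same test, added after the data had been seen. The 6 tested probe sets of Nr1d1, Nr1d2, Cry2, Per3 and Nfil3 were set against the 9 members, which gave 54 relations. After adjustment over these, 1 passed the threshold, by both r and rho, and 12 had an unadjusted p of r under 0.05. Nr1d1 (REV-ERB alpha), which represses Arntl, was high in the same mice as Arntl inside groups, at r = 0.65 (permutation p = 0.00038, adjusted p = 0.0205) and rho = 0.64 (permutation p = 0.00078, adjusted p = 0.0421). The sign was positive in 7 of 8 groups, r was 0.59 without the 2 farthest mice, and it lay between 0.57 and 0.80 with each group left out in turn. Nr1d1 in the GLIP mice read 912.8, 1142.5, 1441.3 and 1763.8, so that the mice high in Arntl were high in Nr1d1 too.

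Against the repressors Nr1d1 was negative and did not pass the adjusted threshold. With Per2 it had r = -0.61 (permutation p = 0.00288, adjusted p = 0.0682) and rho = -0.58 (permutation p = 0.00491, adjusted p = 0.0663), and r was -0.63 without the 2 farthest mice. With Cry1 it had r = -0.59 (permutation p = 0.00663, adjusted p = 0.0895) and rho = -0.58 (permutation p = 0.00341, adjusted p = 0.0663), with -0.55 without the 2 farthest. Nfil3 had r = 0.58 with Cry1 by one probe set (permutation p = 0.00379, adjusted p = 0.0682) and rho = 0.58 (permutation p = 0.00376, adjusted p = 0.0663), with 0.51 without the 2 farthest. Nr1d2, the other REV-ERB receptor, lay between -0.46 and 0.48 with the members.

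The other clock list held 38 genes, of which 25 had a probe set and 21 passed the filter, read by their brightest probe set. In LTCR against CON limma called 5 of the 21 lower and 0 higher, beside 11.8% of all probe sets lower and 7.53% higher. An unadjusted p under 0.05 was found for 9 of the 21, beside 32% of all probe sets. The median of the list was -0.02, and that of all probe sets 0. Id2, an inhibitor of helix-loop-helix factors, fell from 7214 ± 353 to 4188 ± 732, by -0.79 ± 0.10. Csnk1a1, a casein kinase, fell by 0.71 ± 0.10, while its other probe set had -0.17 ± 0.10 with no call. Noct, the deadenylase-like protein nocturnin, fell by 0.64 ± 0.16, and a dimmer probe set by 0.84 ± 0.20, while the third had -0.40 ± 0.22 and no call. Crebbp, a histone acetyltransferase, fell by 1.13 ± 0.30, a call that ended without LTCR 4 (-0.76). Nampt, which makes the NAD precursor, fell by 0.48 ± 0.16. Its call ended without CON 1 (-0.47), CON 3 (-0.44), CON 4 (-0.46), LTCR 1 (-0.48) or LTCR 4 (-0.43), under both other scalings, without a filter and without the arrays rich in muscle transcripts.

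The remaining core loop genes gave no call in LTCR against CON. Nr1d1 was at 805.7 ± 39 in LTCR and 1051 ± 268 in CON (-0.34 ± 0.20), Nr1d2 at 971.2 ± 43 and 895.5 ± 83.2 (0.12 ± 0.10), Per3 at 373.4 ± 67.1 and 452.6 ± 32 (-0.27 ± 0.14), and Cry2 at 576.1 ± 110 and 524.2 ± 96.4 (0.13 ± 0.14). Nfil3, which opposes Dbp at D-boxes, had 0.45 ± 0.17 and 0.38 ± 0.22 by its 2 probe sets. The highest Nr1d1 mean was that of ROS, 1561 ± 299, a difference from CON of 0.57 ± 0.20 with no call.

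**Figure D5:**
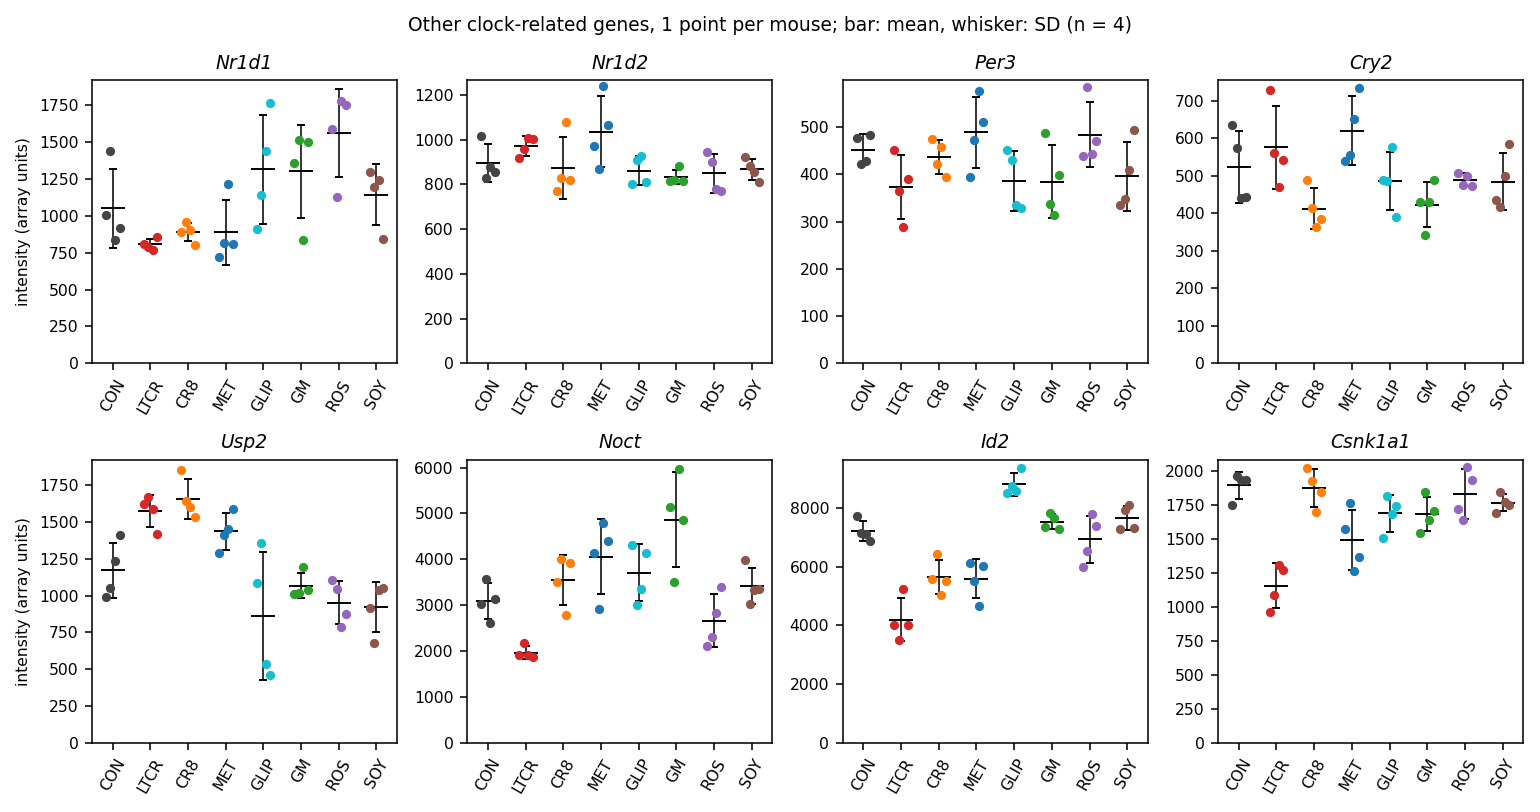
Intensity in array units (vertical axis, from 0) of 8 other clock-related genes in the 8 groups, 1 point per mouse, with mean and SD (n = 4). Id2, Noct and Csnk1a1 are lowest in LTCR, Nr1d1 is highest in ROS, and Usp2 spreads most in GLIP.

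In MET, limma called 2 of the 21 genes of this list lower (Id2 -0.38 ± 0.10 and Csnk1a1 -0.35 ± 0.10), beside 4.17% of all probe sets called there. In GM it called 1 higher (Noct 0.64 ± 0.16), beside 1.55%. None was called in CR8, GLIP, ROS or SOY against CON, where 4, 3, 2 and 2 had an unadjusted p under 0.05. Of all probe sets, 11.6%, 9.37%, 8.41% and 8.17% had such a p in these comparisons. The other probe set of Csnk1a1 gave no call in MET. The other Noct probe sets gave none in GM, at 215.8 ± 38.5 and 1460 ± 78.5 against 192.2 ± 24.5 and 1123 ± 146 in CON. The calls in MET and GM were near the threshold. That of Id2 ended without MET 2 (-0.37), MET 3 (-0.29) or any 1 of the 4 CON arrays (-0.40 to -0.34). That of Csnk1a1 ended without MET 1 (-0.38), MET 3 (-0.28), MET 4 (-0.31) or any 1 of the CON arrays (-0.39 to -0.33). That of Noct in GM ended without GM 1 (0.60), GM 3 (0.53), GM 4 (0.63), CON 1 (0.63), CON 3 (0.56) or CON 4 (0.65). Without the arrays rich in muscle transcripts all 3 calls ended, at -0.38, -0.34 and 0.56, as they did with only the groups compared fitted. The calls in MET also ended with equal medians (-0.30 for Id2 and -0.27 for Csnk1a1). Those of Csnk1a1 in MET and Noct in GM ended without a filter and without a trend in the fit, and that of Noct also with quantile normalization (0.57) and with the replicate block.

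In LTCR against CR8, 4 of the 21 genes of the list were lower and 2 higher, beside 7.34% of all probe sets lower and 4.65% higher. Id2 (-0.44 ± 0.10), Csnk1a1 (-0.69 ± 0.10), Noct (-0.83 ± 0.16) and Crebbp (-1.11 ± 0.30) were the lower ones, and Cry2 (0.45 ± 0.14) and Fbxw11 (0.47 ± 0.13), a ubiquitin ligase subunit, the higher ones. Another probe set of Fbxw11 went in the opposite direction with no call, at 454.2 ± 43.8 in LTCR and 495.8 ± 24 in CR8. The other probe set of Csnk1a1 gave no call. It read 888.6, 839, 1141.8 and 956.4 in LTCR and 989.3, 1059.6, 949.5 and 938 in CR8. The call of Crebbp ended without LTCR 4 (-0.74), CR8 2 (-1.03) or CR8 4 (-0.98). That of Fbxw11 ended without LTCR 1 (0.43), LTCR 4 (0.42), CR8 2 (0.42) or CR8 4 (0.43), and that of Cry2 without LTCR 1 (0.33), LTCR 2 (0.45), LTCR 4 (0.47), CR8 2 (0.45), CR8 3 (0.39) or CR8 4 (0.42). Without the arrays rich in muscle transcripts the calls of Id2 (-0.35), Crebbp (-1.17), Fbxw11 (0.42) and Cry2 (0.57) ended, and those of Csnk1a1 and of the brightest Noct probe set held. With LTCR and CR8 fitted alone those of Id2, Crebbp and Cry2 ended, and that of Cry2 also with equal medians (0.43) and without a filter. A dimmer Noct probe set was also called lower, by -0.73 ± 0.20. Its call ended without LTCR 1 (-0.56), CR8 2 (-0.63) or the arrays rich in muscle transcripts (-0.56), and with LTCR and CR8 fitted alone. A probe set of Nfil3 was higher in LTCR by 0.88 ± 0.17, the other had 0.17 ± 0.22 and no call. A probe set of Csnk1d, a kinase that phosphorylates the period proteins, was also called higher in LTCR, by 0.88 ± 0.26, while the other 3 gave no call. That call ended without LTCR 1 (0.78), LTCR 3 (0.53), CR8 2 (0.81), CR8 3 (0.82), CR8 4 (0.88) or the arrays rich in muscle transcripts (0.95), and with LTCR and CR8 fitted alone.

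Liver genes under the members' control were read from 2 lists, chosen with earlier results of these data known. Of 12 targets of the PAR bZIP factors, 7 had a probe set and were tested. In LTCR against CON 1 was called lower, beside 11.8% of all probe sets. It was Upp2, uridine phosphorylase, at 11410 ± 2410 in CON and 6974 ± 1260 in LTCR (-0.70 ± 0.19). The other 6 gave no call, and the list's median was -0.11 against 0 for all probe sets. Upp2 was also called lower in ROS, at 5547 ± 627 (-1.02 ± 0.19), where Dbp had its highest group mean. There 0.136% of all probe sets were called. With no call, Upp2 means were also below CON in GLIP (7150 ± 2210), GM (8401 ± 1270) and, narrowly, CR8 (10600 ± 1750). Those of MET (12270 ± 1690) and SOY (12230 ± 2090) were above CON. The list's median in GLIP was -0.47, against 0 for all probe sets. The ROS call ended without CON 3 (-0.95), CON 4 (-0.91), ROS 3 (-0.96) or the arrays rich in muscle transcripts (-0.93). Against CR8, Upp2 was lower in LTCR by -0.61 ± 0.19, beside 7.34% of all probe sets called lower. That call ended without LTCR 2 (-0.58), LTCR 3 (-0.49), CR8 1 (-0.52), CR8 2 (-0.57), CR8 4 (-0.61), a filter or the arrays rich in muscle transcripts (-0.43). Of 7 targets of the ROR and REV-ERB receptors, 4 had a probe set and 2 were tested, G6pc and Nfil3. Nfil3, which is also in the other clock list, gave no call by its brightest probe set. G6pc, the enzyme that releases glucose, was called higher, at 8234 ± 1510 in LTCR and 3078 ± 560 in CON (1.41 ± 0.26), and also against CR8 (1.09 ± 0.26). Of all probe sets, 7.53% were called higher against CON and 4.65% against CR8.

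Per1 and Bhlhe40 are also known as early responders to hormones and stress, so immediate early and glucocorticoid-responsive genes were read beside them. Of 14 such genes, 11 were tested, and limma called 4 higher and 4 lower in LTCR against CON, beside 7.53% of all probe sets higher and 11.8% lower. Fosb (0.09 ± 0.15), Ier3 (0.36 ± 0.28) and Sgk1 (-0.02 ± 0.23) gave no call. The higher ones were Zbtb16 (2.17 ± 0.41), Fkbp5 (1.18 ± 0.16), Tat (1.04 ± 0.15) and Dusp1 (0.84 ± 0.24). The lower ones were Atf3 (-1.05 ± 0.29), Egr1 (-1.03 ± 0.27), Junb (-0.82 ± 0.29) and Ier2 (-0.51 ± 0.12). The list mixed both kinds of gene and was not divided beforehand. Atf3 averaged 463.4 in CON and 201.1 in LTCR. It was also below CON in ROS (205), CR8 (216.7), MET (237.6), GLIP (244.9) and GM (330.9), but not in SOY (498.6). Junb averaged 352.9 in CON, 190.9 in LTCR, 138.9 in CR8 and between 272.8 and 417.9 in the other groups. In CR8 and in MET, limma called 0 of the 11 against CON, and 7 had an unadjusted p under 0.05. Of all probe sets, 11.6% and 18.1% had such a p. The call of Atf3 ended without CON 3 (-0.86), and that of Junb without CON 1 (-0.88), CON 2 (-0.65), CON 4 (-0.71), LTCR 2 (-0.71) or LTCR 3 (-0.62), under both other scalings (-0.80 and -0.78), without a filter and with LTCR and CON fitted alone. The other Junb probe set had -0.85 ± 0.31 and no call. Without the arrays rich in muscle transcripts the call of Atf3 ended as well (-0.86). Against CR8, Zbtb16 (1.31 ± 0.41), Fkbp5 (0.63 ± 0.16) and Tat (0.53 ± 0.15) were called higher in LTCR, beside 4.65% of all probe sets. All 3 calls ended without the arrays rich in muscle transcripts, where the differences were 1.47, 0.59 and 0.53. That of Zbtb16 also ended without LTCR 1 (1.36), LTCR 3 (1.27), LTCR 4 (1.11), CR8 1 (1.34), CR8 2 (1.38), CR8 4 (0.91) or a filter and with LTCR and CR8 fitted alone, and that of Tat without LTCR 4 (0.42) or CR8 2 (0.51). In the LTCR mice Bhlhe40 was lower than in CON and Per1 had no call.

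For each member the 3 probe sets of other genes with the most similar pattern over the 32 arrays were taken by Pearson's r, which includes the differences between groups. Those nearest to Dbp were Ttc30b (0.87), Isg15 (0.86) and Azin1 (0.86), and with group means removed their r fell to 0.27, 0.31 and 0.25. Ttc30b averaged 109.9 in LTCR and 359.5 in CON, the same direction as Dbp. Cry1 was nearest to Ndel1 (0.82), Cyp2c38 (0.81) and Cyp2c39 (0.78), with 0.56, 0.61 and 0.40 inside groups. Per1 was nearest to Alas1 (0.72), which starts haem synthesis, Pim3 (0.68) and Marveld1 (0.65), with 0.69, 0.58 and 0.54 inside groups. Per2 was nearest to Usp2 (0.74 and 0.73 by its 2 probe sets), a clock-controlled deubiquitinase, and Ak4 (0.62), with 0.68, 0.64 and 0.74 inside groups. As these genes were picked for their likeness, their r is a description with no test. Inside groups Alas1 had r = 0.56 with Per2, and the 2 Usp2 probe sets had 0.50 and 0.70 with Per1 and -0.62 and -0.59 with Arntl. With each group left out in turn, r of Alas1 and Per2 fell as low as 0.15. The Usp2 probe sets fell as low as 0.21 and 0.59 with Per1 and 0.42 and 0.32 with Per2. Their weakest values with Arntl were -0.46 and -0.43.

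Arntl was nearest to Tial1 (0.69), Pdyn (0.67) and Atp13a3 (0.66), with 0.43, 0.67 and 0.61 inside groups, and Clock to Gsto1 (0.72), Lat (0.67) and Canx (0.66), with 0.45, 0.36 and 0.48. Rora was nearest to Psmb5 (0.73), Clta (0.65) and Pomgnt1 (0.63), with 0.74, 0.45 and 0.72 inside groups. Bhlhe40 was nearest to Anxa2 (0.75), Srebf1 (0.73), a regulator of lipid synthesis, and Ccnd1 (0.69), with 0.68, 0.31 and 0.55 inside groups. Tef was nearest to Csrp2 (0.64), Eloa (0.53) and Rrs1 (0.52), with 0.46, 0.37 and 0.38. The r over all arrays includes the likeness inside groups, so these values are not separate readings.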

How the data were processed

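The authors deposited linear intensity values (0.1 to 47323.7) that had been scaled, since the trimmed means agree; the software is not given in the sources used here. Of 12488 probe sets, 66 controls were left out; the platform annotation gave 1 symbol for 10833, several for 396 and none for 1193. Values were analysed as log2(intensity + 27), 27 being the 20th percentile of all deposited intensities, a scale that understates changes of dim genes. Probe sets were tested (7357) if their mean log2(intensity + 27) over all arrays exceeded this log2 value of the 40th percentile, 94.2. Limma 3.58.1 in R 4.3.3 (lmFit, eBayes with trend) fitted all 8 groups together with 24 residual degrees of freedom; p-values were adjusted by Benjamini-Hochberg within each of 8 comparisons, threshold 0.05. Differences are log2 values with SE from this fit; errors of intensities are SDs. Replicates are separate mice, and the number of arrays limits the precision.

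The members and gene lists were chosen with earlier results of these data known. Named were all member probe sets, listed clock and clock-controlled genes past the threshold in the comparison described, the core loop genes, and the 3 nearest probe sets of each member. Alternatives were other scalings, added values, filters, fits, a replicate block and arrays left out. The scripts were tested on simulated data.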

Additional observations from a re-analysis of the deposited data

Results flagged for a closer look

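In 9 of 72 sets of 4 mice (9 genes in 8 groups), the lowest or highest mouse stood apart from the other 3 by more than Dixon's 95% critical value, taken on the log2 scale. Chance gives about 1 in 20 such sets. Low mice were ROS 2 for Arntl (71.2, the others 98.8 to 102.3), CON 1 for Clock (188, the others 234.5 to 238.6), CR8 3 for Clock (157.5, the others 214.7 to 215.6), GM 3 for Rora (453.8, the others 565.7 to 585.6) and CR8 2 for Per1 (64.8, the others 211.1 to 261.2). High mice were MET 1 for Bhlhe40 (1863.7, the others 1384.9 to 1434.7), SOY 1 for Bhlhe40 (1312.8, the others 1072 to 1108.5), MET 3 for Per1 (578.3, the others 246.7 to 274.1) and GM 3 for Per1 (289.1, the others 181.8 to 196.4). CR8 2 is also an array rich in muscle transcripts; the part of muscle in its Per1 value was not tested.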

How the results depend on the processing

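The 6 members called in LTCR against CON became 3 to 7 under the alternatives. The count was 3 without the arrays rich in muscle transcripts, where Dbp, Cry1 and Bhlhe40 remained, and 3 to 5 with each array left out, 3 being the count without CON 3, CON 4 or LTCR 4. In LTCR against CR8 the 2 calls became 1 with a filter at the 60th percentile, which left 5 members, and 1 with only these groups fitted, and lay between 1 and 3 in all. No member was called in another comparison under any alternative run. With the replicate block the LTCR count against CON was 7, Tef being added; the cause was not tested. Over 32 pairs of arrays with the same replicate number, deviations correlated between -0.17 and 0.17, over 0.1 in 2. Of these arrays, 7 correlated best with their own number. The main fit used no pairing, and whether the numbers mark a shared processing step was not tested. Over all probe sets the counts ran from 1066 to 1523 in LTCR against CON, 423 to 949 in LTCR against CR8, 11 to 68 in CR8, 33 to 320 in MET, 1 to 11 in GLIP, 4 to 432 in GM, 4 to 12 in ROS and 0 to 1 in SOY. The 432 in GM came with equal medians. Of the correlations between members under other settings, 453 moved by less than the standard error of r and 15 by more. The dim Arntl signal lies near the filter, and 4 mice a group limit what small differences can be told.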
